A study of Mus musculus with 8 samples.

Results

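The genes described here are the keratins and other proteins from which the hair shaft and the inner root sheath of the hair follicle are built, together with factors that control the hair matrix. They were taken by name from a list of 33 genes, which was drawn up with earlier results of these data known. Of these, 32 had a row in at least 1 of the 3 tables of the series, 30 had a row in all 3, and 1 further gene of the list is not analysed here. Each table held 31 of them, among 26457 gene loci for unperturbed samples, 47990 for hair plucking and 46726 for wounds.

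The study asked what JunB, a subunit of the AP-1 transcription factor, does in basal cells of the mouse epidermis and its appendages. In JunB cKO mice (JunB -/- in the labels), floxed JunB alleles were deleted by a Cre recombinase under the K14 promoter, which is active in basal keratinocytes. The wild type mice carried the genotype JunB +/+, and all mice were of the strain C57BL/6. RNA-seq was carried out on unperturbed samples of mice aged 60 days, on skin plucked on postnatal day 54 and collected 4 days later, and on skin biopsies 30 days after wounding. The labels give no age for the wounded mice. The 8 libraries comprised 1 per genotype for the unperturbed and the plucked samples and 2 per genotype for the wounds, and RNA of 3 samples was pooled per group. The Cre acts in K14-expressing cells and their progeny, so that dermal cells of the biopsies should have kept JunB.

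A growing hair shaft is made by matrix cells at the base of the follicle, which stop dividing and fill with keratin filaments as they move up. Type I and type II hair keratins pair to form the filaments of the shaft, and they are linked through many cysteines. Around the shaft, the inner root sheath moulds and guides the hair. It has its own keratins and is hardened by trichohyalin, a protein whose arginines are converted to citrulline by peptidylarginine deiminases. These genes are active in growing follicles (anagen) and largely silent in resting ones (telogen), and plucking starts a new growth phase. Msx2, Hoxc13 and Foxn1 are transcription factors of the matrix and the early shaft that are needed for normal hair.

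Levels are given as FPKM, the number of reads corrected for transcript length and library size, so that genes can be compared within a column. Each table gave 1 FPKM value per genotype, also for the wounds with their 2 libraries, so no spread between replicates and no test can be given for any value. Pairs of values are written with wild type first and JunB cKO second. A gene was counted as higher or lower in JunB cKO where log2((cKO + 1)/(WT + 1)) was at least 1 or at most -1, a difference of 2-fold after adding 1 FPKM. This log2 ratio understates the difference of genes with low FPKM. Loci that reached 1 FPKM in either genotype are called expressed loci, and those that reached 10 FPKM in each genotype are called well expressed. The tables were normalized separately, so their levels are only set side by side. Depth was estimated from single-exon loci, where low FPKM values come in steps of whole reads. On a 1-kb transcript, a level of 1 FPKM corresponded to 16.9 reads in the unperturbed wild type library but only 4.98 in the JunB cKO library, to 16.3 and 12.9 reads after plucking, and to 44.1 and 39.99 reads in wounds. Junb itself was lower in JunB cKO throughout, with 268 and 31.4 FPKM in unperturbed samples, 40.8 and 11.7 after plucking, and 33.4 and 15.4 in wounds. The labels name keratinocyte as the tissue of both the unperturbed and the plucked samples. The dermal collagen gene Col1a1 had 2.66 FPKM in unperturbed, 1168 in plucked and 2506 in wounded wild type samples, so dermal RNA was abundant in the latter pair of tables.

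The 13 type I keratins among the members lie on chromosome 11 between 99315516 and 100105626 and the 10 type II keratins on chromosome 15 between 101459061 and 101802346 (GRCm38). Tchh (chr3:93442330-93449077) and Tchhl1 (chr3:93468754-93471980) are neighbours in the epidermal differentiation complex on chromosome 3. Promoter sequences of RefSeq (GRCm38.p6), from 250 bases before to 50 bases after each start, were matched for 25 members. The sequence TATAAA on the coding strand began 40 to 20 bases before the start in 10 of these 25 genes (40%), against 2.41% of 27025 genes. They were Krt25, Krt26, Krt28, Krt71, Krt73, Krt31, Krt32, Krt34, Krt40 and Crisp1. TGANTCA, a loose pattern used here for AP-1 that allows any middle base, was searched on both strands. It occurred in 1 of 25 promoters (4%), against 8.97% of all genes. The match was that of Tchhl1 at position -87, which has A as the middle base. The core motif of FOXN1, ACGC on both strands, was found in 12 of 25 (48%), against 57.9%. These matches describe the letters of the window only. The 100 bases before the start are shown for inner root sheath keratins of both chromosomes, for a hair keratin, for both trichohyalin genes and for Crisp1, the member with the largest difference in wounds. TATAAA and TGANTCA are in capitals, and each sequence is written 5′ to 3′ on the strand of the gene.
Krt25, chr11:99322952-99323051, minus strand: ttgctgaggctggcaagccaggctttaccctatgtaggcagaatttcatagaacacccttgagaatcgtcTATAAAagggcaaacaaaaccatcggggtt
Krt71, chr15:101743098-101743197, minus strand: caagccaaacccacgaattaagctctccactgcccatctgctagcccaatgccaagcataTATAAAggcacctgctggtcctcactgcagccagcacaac
Krt34, chr11:100041555-100041654, minus strand: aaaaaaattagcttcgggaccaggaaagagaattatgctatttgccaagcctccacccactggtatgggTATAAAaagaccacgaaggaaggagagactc
Tchh, chr3:93442230-93442329, plus strand: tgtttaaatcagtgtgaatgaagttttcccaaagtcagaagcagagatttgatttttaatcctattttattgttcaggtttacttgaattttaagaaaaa
Tchhl1, chr3:93468654-93468753, plus strand: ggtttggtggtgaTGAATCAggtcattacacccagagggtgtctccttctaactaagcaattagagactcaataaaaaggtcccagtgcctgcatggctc
Crisp1, chr17:40319208-40319307, minus strand: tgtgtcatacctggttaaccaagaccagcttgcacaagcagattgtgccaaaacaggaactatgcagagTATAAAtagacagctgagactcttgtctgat

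At 4 days after hair plucking, most hair and inner root sheath genes were higher in JunB cKO than in wild type skin. At the 2-fold limit 22 of 31 members were higher, or 71.0%, against 6.5% of all 47990 loci and 18.4% of the 16932 expressed loci. The 3 members that were lower, Krt36, Krt84 and Msx1, made up 9.68%, against 5.65% of all loci and 16% of the expressed loci. With the FPKM of all loci of a symbol summed, 2 were lower, since Msx1 was then no longer past the limit. By any amount, 26 members (83.9%) were higher and 4 (12.9%) lower, against 51.3% and 48.7% of the expressed loci, and Krt40 was listed at 0 in both genotypes. The FPKM values of the members summed to 132 and 872, and their median log2 ratio was 1.86, against 0.03 over the expressed loci. Part of this rests on listed zeros, since 7 members were listed at 0 in wild type alone and 2 in JunB cKO alone. A listed 0 need not mean low expression, because 224 loci of this table with at least 10 FPKM in JunB cKO were listed at 0 in wild type and 133 the other way round. Among them were secondary rows of the housekeeping genes Ndufa6, with 34.7 FPKM in JunB cKO, and Rpl39, with 46.8 FPKM in wild type, whereas by the row of largest FPKM none of 192 housekeeping genes showed this pattern. Among the 21 members above 0 in both genotypes, 15 were higher and 1 was lower at the 2-fold limit. The shares past the limit among all 15133 loci above 0 in both genotypes were not calculated. The median log2 ratio of these 21 members was 1.96, against 0.002 over those loci. In such samples of whole tissue, more cells of a type and more RNA per cell cannot be told apart.

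**Figure D1:**
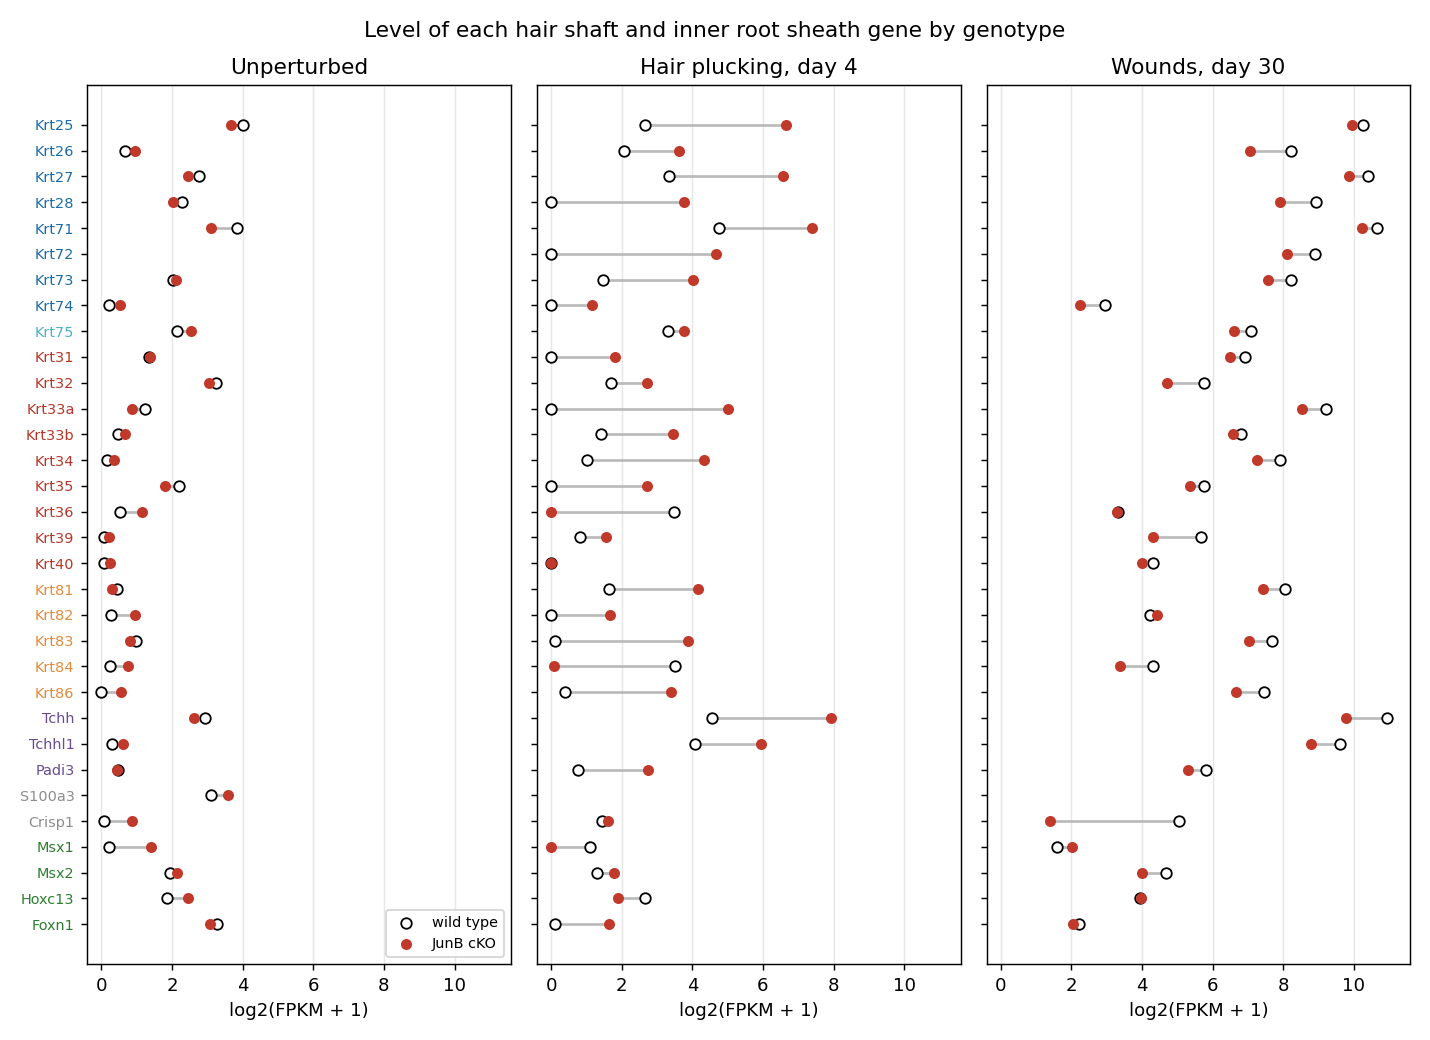
Level of each gene as log2(FPKM + 1) on the horizontal axis, with 1 open point for wild type and 1 filled point for JunB cKO in each of the 3 tables; gene names are coloured by role. After plucking the filled points of 26 genes lie to the right of the open ones, in wounds those of 28 genes lie to the left, and in unperturbed samples every point lies at 14.97 FPKM or less. S100a3 has a row of its own only in the unperturbed table, and Krt72 has none under its name there.

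The inner root sheath keratins shared their direction after plucking, with 8 of 8 members higher in JunB cKO at the 2-fold limit and a median log2 ratio of 2.94. Krt71, a type II keratin of the sheath, was the most abundant of them in both genotypes, with 26.1 and 168 FPKM (log2 ratio 2.64). Krt25, a type I partner, had 5.28 and 98.5 FPKM, an 18.7-fold difference. Krt27, another type I keratin of the sheath that shares 4.54% of its 75-base windows with other genes, had 9.13 and 94.6 FPKM, a 10.4-fold difference. These keratins thus ranked 4132, 10085 and 8043 among all loci of the wild type column, and 541, 990 and 1063 in JunB cKO. Krt73, a type II keratin found in the sheath cuticle, had 1.75 and 15.2 FPKM, and Krt26, a type I keratin found there too, 3.21 and 11.2 FPKM. Krt28, Krt72 and Krt74 were listed at 0 in wild type and reached 12.5, 24.6 and 1.23 FPKM in JunB cKO, so that no fold can be given for them. Krt75, the keratin of the companion layer that lies just outside the inner root sheath, differed less, with 9.02 and 12.6 FPKM (log2 ratio 0.45).

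Type I hair keratins were also mostly higher in JunB cKO after plucking, with 6 of 9 higher and 1 lower at the 2-fold limit and a median log2 ratio of 1.80, but at lower levels than the sheath keratins. Krt34, a keratin of the shaft cortex, had 1.04 and 19.0 FPKM (log2 ratio 3.29), and Krt33b, another cortex keratin, 1.69 and 9.96 FPKM. Krt33a was listed at 0 in wild type and had 30.9 FPKM in JunB cKO, the highest value of any hair keratin in that sample. Krt31 and Krt35 were likewise listed at 0 in wild type, with 2.47 and 5.51 FPKM in JunB cKO. Krt35 is among the earliest keratins of the matrix and lower shaft. Krt32, a keratin of the shaft cuticle, just passed the limit with 2.23 and 5.62 FPKM (log2 ratio 1.04). Krt39, expressed late in shaft differentiation, did not reach it with 0.770 and 1.93 FPKM (log2 ratio 0.73). Krt36, a keratin also known from tongue and nail, stood against the rest of the group. It had 10.2 FPKM in wild type, or about 245 reads, and was listed at 0 in JunB cKO. Krt34, Krt31, Krt33a and Krt33b share 24.7%, 19.1%, 14.4% and 11% of their 75-base windows with other genes. Without these genes the median log2 ratio of the group was 0.73. Krt32 and Krt35 were then the type I hair keratins higher at the limit, and Krt36 was lower.

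Of the 5 type II hair keratins, 4 were higher in JunB cKO after plucking and 1 was lower, with a median log2 ratio of 2.52. Krt81 and Krt86 are keratins of the cortex whose transcripts share 35.5% and 33.5% of their 75-base windows with other genes, mostly with each other. Krt81 had 2.11 and 16.9 FPKM and Krt86 had 0.314 and 9.49. Krt83 had 0.0723 and 13.7 FPKM, which corresponds to about 2 and 274 reads. Krt82, a cuticle keratin, was listed at 0 in wild type and had 2.18 FPKM in JunB cKO. Krt84, which is also known from the filiform papillae of the tongue, had the opposite order, with 10.3 and 0.0655 FPKM, or about 400 and 2 reads. Krt36 and Krt84 were thus the keratins of the list that were lower in JunB cKO after plucking. Members with 10% or more of their windows in another gene were also left out. Of the 24 others, 15 were higher at the 2-fold limit and 3 were lower, with a median log2 ratio of 1.53. Krt82 and Krt84 were then the type II hair keratins left, with a median of -0.87. No share of all loci under the same restriction was calculated.

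Trichohyalin and the genes that act with it had the direction of the sheath keratins, with 3 of 3 higher at the 2-fold limit after plucking. Tchh had 22.3 and 241 FPKM (log2 ratio 3.37), and in JunB cKO it was the most abundant member and ranked 370 among all loci. Its neighbour Tchhl1, a trichohyalin-like protein, had 15.9 and 60.5 FPKM (log2 ratio 1.86). Padi3, the peptidylarginine deiminase that modifies trichohyalin, had 0.704 and 5.65 FPKM (log2 ratio 1.96). In JunB cKO the inner root sheath keratins held 48.8% and the trichohyalin group 35.2% of the members' summed FPKM, against 34.4% and 29.5% in wild type. Type I and type II hair keratins made up 8.64% and 4.85% in JunB cKO, against 12.1% and 9.73% in wild type.

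The matrix transcription factors did not share a direction after plucking. Foxn1 had 0.0814 and 2.11 FPKM (log2 ratio 1.53), on about 4 and 82 reads. Msx2 differed by less than 2-fold, with 1.47 and 2.43 FPKM (log2 ratio 0.48). Hoxc13, which is needed for the expression of many hair keratins, had 5.34 and 2.71 FPKM (log2 ratio -0.77), within the limit but opposite to most keratins. Msx1 had 1.17 FPKM in wild type, about 33 reads, and was listed at 0 in JunB cKO, but this table holds another locus of Msx1 at the same coordinates, with 0.547 FPKM in JunB cKO. Summed over both loci the log2 ratio of Msx1 was -0.49, within the limit. Crisp1, a cysteine-rich secretory protein best known from the epididymis, had 1.71 and 2.04 FPKM.

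**Figure D2:**
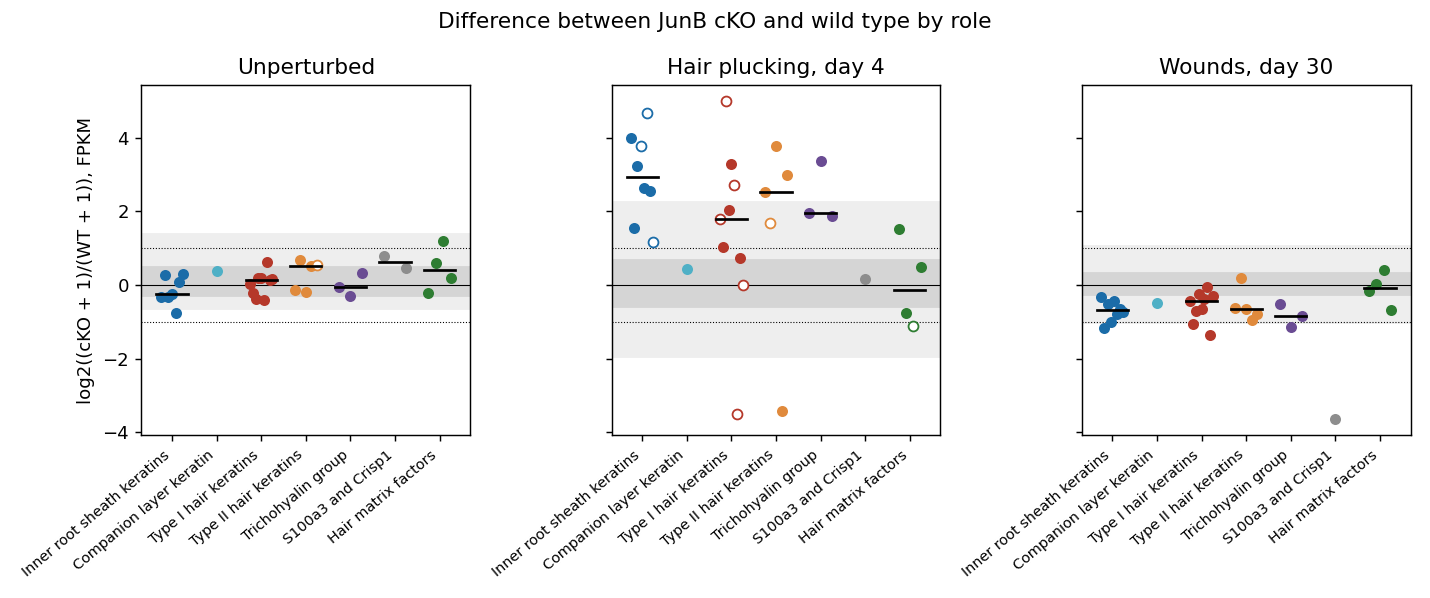
Log2 ratio of JunB cKO over wild type for each gene, grouped by role, in each table; open points mark genes listed at 0 in a genotype, black bars are group medians, dotted lines mark 2-fold, and the dark and light bands hold the middle 50% and 90% of loci that reached 1 FPKM in either genotype. After plucking all 8 inner root sheath keratins lie above the upper dotted line, in wounds all 8 lie below zero, and the matrix factors lie on both sides of zero in each table.

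Markers of other cell types also differed between the plucked samples. Of 5 melanocyte markers 3 were higher in JunB cKO at the 2-fold limit and none was lower, with a summed FPKM of 28.5 and 51.8. Dct had 18.9 and 27.8 FPKM, Tyr 0.273 and 5.16, Tyrp1 7.63 and 7.003, Pmel 1.60 and 9.27, and Mlana was listed at 0 in wild type and had 2.58 FPKM in JunB cKO. Among the cell division genes 4 of 5 were higher by any amount, with a median log2 ratio of 0.69. Mki67 had 35.02 and 61.04 FPKM, Top2a 34.9 and 57.7, Ccnb1 9.24 and 15.5, Birc5 19.5 and 29.7, and Cdk1, the exception, 26.04 and 9.31. The 5 dermal fibroblast markers were all lower in JunB cKO, with a summed FPKM of 5096 and 1848, namely Col1a1 with 1168 and 527, Col1a2 with 525 and 245, Col3a1 with 2559 and 535, Dcn with 754 and 475, and Lum with 88.9 and 65.7. The 4 skeletal muscle markers found were lower at the 2-fold limit, with a summed FPKM of 196 and 25.04, namely Ckm with 21.7 and 2.15, Myh4 with 16.2 and 2.43, Mylpf with 118 and 11.3, and Tnnt3 with 40.7 and 9.12. The epidermis markers had a summed FPKM of 8675 and 10788 and a median log2 ratio of 0.46. Of these 9 genes 6 were higher by any amount and 3 lower, none past the 2-fold limit. The lower ones were Krt14 with 2446 and 1709 FPKM, Krt15 with 1530.5 and 1382, and Krt2 with 0.686 and 0. The adipocyte markers summed to 189 and 65.4 FPKM, and 2 of 5 were lower at the limit, Fabp4 with 125 and 27.4 and Cfd with 46.4 and 16.9. Plin1 had 6.86 and 3.45 FPKM, Lep 1.20 and 0.228, and Adipoq 8.76 and 17.4. The 6 leukocyte markers were split, with 2 higher and 3 lower at the limit. S100a8, which keratinocytes also express under stress, was listed at 0 in wild type and had 152 FPKM in JunB cKO, and its partner S100a9 had 2.56 and 250. Ptprc had 25.7 and 10.3 FPKM, Cd68 34.9 and 6.23, Lyz2 136 and 51.5, and Cd3e 2.53 and 2.64. The part of these shifts in the higher hair gene levels was not tested.

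In wounds at day 30 the genotypes stood the other way round. With 28 of 31 members, or 90.3%, nearly all hair and inner root sheath genes were lower in JunB cKO, against 48.5% of the 17787 expressed loci, while 9.68% of members and 51.5% of expressed loci were higher. The differences were moderate, and only 6 members (19.4%) were lower at the 2-fold limit, against 1.98% of all 46726 loci and 5.19% of the expressed loci. These were Krt26, Krt28, Krt32, Krt39, Tchh and Crisp1. No member was higher at the limit, against 2.16% of all loci and 5.68% of the expressed loci. The FPKM values of the members summed to 10660 and 6669, and their median log2 ratio was -0.64, against 0.01 over the expressed loci. With the lower limit of 1.5-fold, 17 members were lower. The share of all loci past that lower limit was not calculated, so the shares above cannot be set beside this count. All 31 members stood on more than 10 estimated reads in each genotype.

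Trichohyalin was the most abundant member in wild type wounds, where it ranked 35 among all loci with 1945 FPKM, and it ranked 90 in JunB cKO with 882 FPKM (45.3% of wild type, log2 ratio -1.14). Tchhl1 had 777 and 435 FPKM (56.0%) and Padi3 had 55.5 and 38.4 FPKM (69.2%). The group as a whole held 26.1% of the members' summed FPKM in wild type against 20.3% in JunB cKO.

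All 8 inner root sheath keratins were lower in JunB cKO wounds, with a median log2 ratio of -0.69. The most abundant of them differed least, with 1217 and 977 FPKM for Krt25 (80.3%), 1623 and 1197 for Krt71 (73.8%), and 1342 and 931 for Krt27 (69.4%). Krt73 had 297 and 188 FPKM (63.3%), Krt72 had 473 and 273 (57.6%), and Krt74, the least abundant, had 6.75 and 3.70 (54.9%). The largest differences were those of Krt28, with 486 and 240 FPKM (49.3%), and Krt26, with 299 and 132 (44.1%). Krt75 of the companion layer had 136 and 96.6 FPKM (71.2%).

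Among the type I hair keratins 9 of 9 were lower in JunB cKO wounds, 2 of them at the 2-fold limit. Krt39, with 49.5 and 18.8 FPKM (38.1%), and the cuticle keratin Krt32, with 53.2 and 24.97 (46.9%), differed most. The cortex keratins lay closer to wild type, with 594 and 365 FPKM for Krt33a (61.5%), 237 and 152 for Krt34 (63.9%), 121 and 88.8 for Krt31 (73.6%) and 112 and 94.2 for Krt33b (84.4%). Krt35 had 52.6 and 39.9 FPKM (75.8%), and Krt40, a late keratin like Krt39, had 18.7 and 15.1 (80.8%). Krt36 was nearly level, with 9.002 and 8.69 FPKM (96.6%).

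The type II hair keratins had the same direction but for Krt82. Krt81, Krt83 and Krt86 of the cortex stood at 64.2%, 64.1% and 57.4% of wild type, with 265 and 170, 203 and 130, and 175 and 100 FPKM, respectively. Krt84, with 18.8 and 9.31 FPKM (49.4%, log2 ratio -0.95), just failed to reach the limit. The sheath keratin Krt28, with a log2 ratio of -1.02, just passed it. Krt82 was the only keratin of the list with a higher value in JunB cKO wounds, with 17.7 and 20.3 FPKM (114%).

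**Figure D3:**
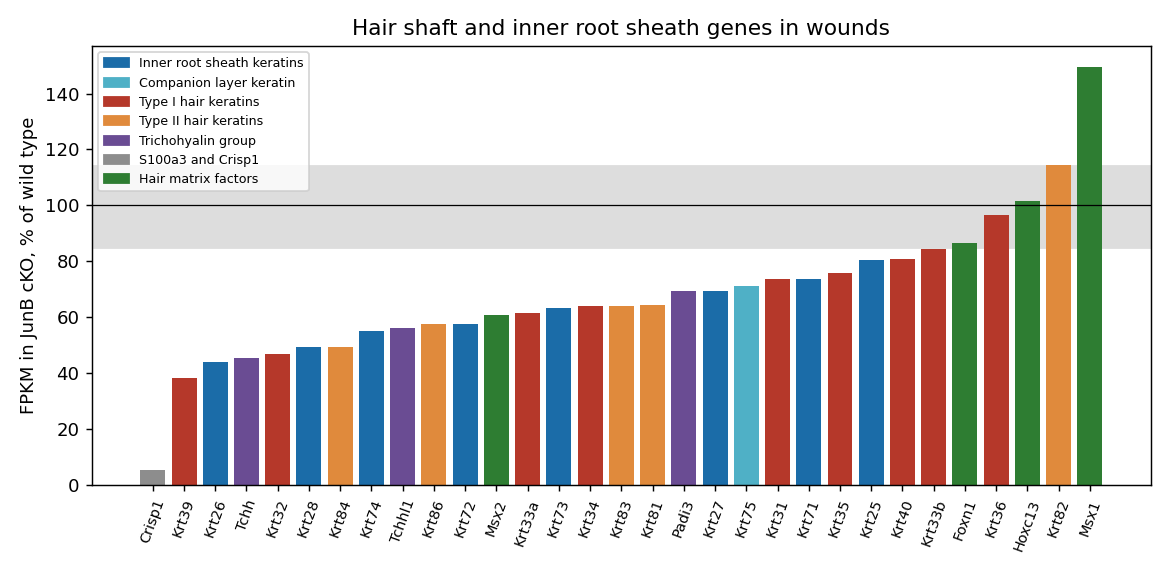
FPKM in JunB cKO wounds as a percentage of wild type for the 31 genes with a row in the wound table, ordered by value and coloured by role; the bars start at 0, the line marks 100% and the grey band holds the middle 50% of the 7450 loci that reached 10 FPKM in each genotype. Crisp1 stands alone at 5.15%, the sheath and shaft keratins spread between 38.1% and 114%, and Msx1, on 2.02 and 3.02 FPKM, is the highest at 150%.

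The 25 members that were well expressed in wounds had a median of 64.1% of wild type, with the middle 50% between 57.4% and 73.8%. Over all 7450 well expressed loci the median was 98.2% and the middle 50% lay between 84.7% and 114%. Values under 75% of wild type were found for 19 of the 25 members and for 11.8% of these loci. The order of the members was nearly the same in both genotypes, with a Spearman rho of 0.97 over 31 genes of the same libraries. The rho was 0.31 after plucking and 0.88 in unperturbed samples. After plucking it includes 7 members listed at 0 in wild type alone and 2 in JunB cKO alone. Whether a listed 0 meant low expression was not tested. These correlations are descriptions across genes, which are not independent replicates.

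Crisp1 had by far the largest difference of all members in wounds, with 32.1 and 1.65 FPKM (5.15%, log2 ratio -3.64), on about 1690 and 81 reads. None of its 75-base windows occurs in another gene. Other genes typical of the epididymis, Lcn5, Lcn8, Adam7, Spag11b and Defb15, had 1.20 FPKM or less in both wound columns. Of the matrix factors, Msx2 was lower in JunB cKO wounds, with 24.7 and 14.96 FPKM (60.7%), close to the median of the members. Hoxc13 was level, with 14.5 and 14.7 FPKM, Foxn1 had 3.66 and 3.16, and Msx1 had 2.02 and 3.02. Among the factors, Msx2 alone was under 75% of wild type.

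Melanocyte markers were also lower in JunB cKO wounds, 5 of 5 by any amount and 2 at the 2-fold limit, with a summed FPKM of 226 and 117 and a median log2 ratio of -0.83. Dct had 63.3 and 35.2 FPKM, Tyr 26.2 and 6.91, Tyrp1 66.1 and 27.1, Pmel 27.5 and 17.00, and Mlana 42.6 and 30.5. Among the cell division genes 4 of 5 were lower, with a median log2 ratio of -0.37. Mki67 had 46.05 and 35.4 FPKM, Top2a 55.9 and 36.2, Cdk1 20.7 and 12.6, Birc5 14.8 and 12.2, and Ccnb1 8.71 and 8.81. The 5 sebocyte markers were higher in JunB cKO, 2 of them at the limit, with a summed FPKM of 429 and 1074. Scd1 had 390 and 1009 FPKM, Scd3 19.1 and 39.3, Awat2 2.58 and 4.57, Elovl3 12.1 and 14.9, and Mc5r 5.51 and 5.92. Fibroblast and epidermis markers had median log2 ratios of 0.02 and 0.10, and single genes of these lists went either way. The 4 muscle markers found were all higher in JunB cKO by some amount, with a median log2 ratio of 0.16. The epidermis markers summed to 3596 and 4653 FPKM, and Ivl was lower at the limit with 139 and 65.7. Krt10 had 1141 and 1770 FPKM, Krt1 343 and 512, Krt14 694 and 967, Krt15 603 and 647, Krt5 362 and 357, Flg 261 and 279, and Lor 52.9 and 55.6, and Krt2 had 0.937 FPKM in wild type and was listed at 0 in JunB cKO. Col3a1 had 5055 and 7735 FPKM and Ckm 425 and 632, while the other fibroblast and muscle markers had log2 ratios from -0.06 to 0.18. The part of these shifts in the lower hair gene levels was not tested.

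**Figure D4:**
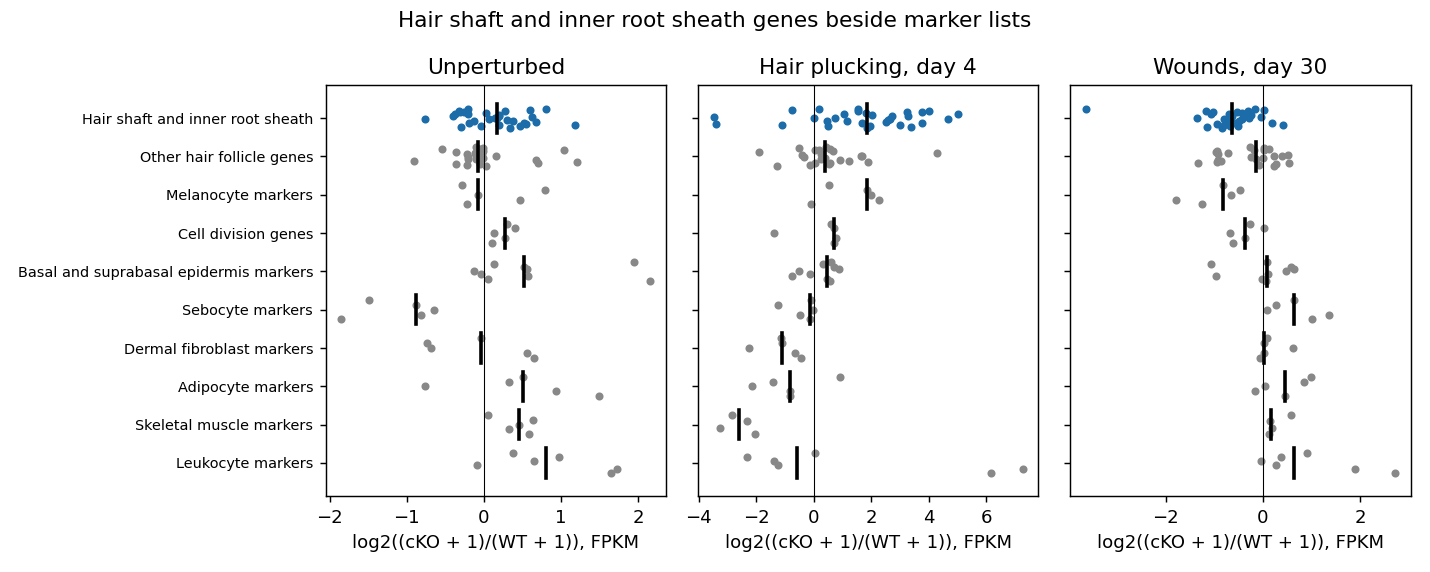
Log2 ratio of JunB cKO over wild type for each hair shaft and inner root sheath gene and for each gene of the marker lists, by table, with a bar at the median of each list; the horizontal axes differ between the tables. After plucking the medians of the hair genes and of the melanocyte markers are 1.86 and 1.84 and those of the fibroblast and muscle markers -1.10 and -2.59; in wounds the hair genes and melanocyte markers have medians of -0.64 and -0.83 and the sebocyte markers 0.64.

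In unperturbed samples the same genes were low and differed little. The FPKM values of the members summed to 92.5 and 88.8, 1 FPKM was reached by 15 members in wild type against 16 in JunB cKO, and the highest value was 14.97. At the 2-fold limit 1 of 31 members, or 3.23%, was higher in JunB cKO, against 9.31% of all 26457 loci and 15.4% of the 15973 expressed loci. No member was lower, against 0.858% and 1.42%. A gene under 1 FPKM in both genotypes cannot pass this limit, and only 17 of the 31 members were expressed. By any amount, 61.3% of the members were higher and 38.7% lower, while 14869 of all 26457 loci were higher and 8932 lower. Of the expressed loci 47.2% were higher and 52.8% lower, but the shares of the members include genes that were not expressed. The median log2 ratio was 0.16, but -0.21 over the 17 members that were expressed, so its direction rested on genes near the detection limit. Loci that reached 1 FPKM in each genotype had a median log2 ratio of -0.15 in this table. Receptor genes of smell and taste had a median of 0 and 0.543 FPKM, and in JunB cKO 8 members did not exceed that level.

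Among the sheath keratins in unperturbed samples, Krt25 had 14.97 and 11.8 FPKM, Krt71 13.4 and 7.52, Krt27 5.83 and 4.50, and Krt28 3.90 and 3.11. Each of these was somewhat lower in JunB cKO, with log2 ratios from -0.76 for Krt71 to -0.25 for Krt28. Krt25 stood at 78.5% of wild type, where the well expressed loci of this table had a median of 85.7%. A row at the annotated position of Krt72, named Krt72-ps, had 1.35 and 1.91 FPKM. With that row counted, the median log2 ratio of the sheath keratins was -0.09 in place of -0.25. Krt73 was level, with 3.09 and 3.29 FPKM, Krt26 had 0.592 and 0.920, Krt74 had 0.170 and 0.433, and Krt75 had 3.43 and 4.77.

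Of the hair keratins in unperturbed samples, Krt32 was the most abundant, with 8.52 and 7.22 FPKM, followed by Krt35 with 3.62 and 2.51, Krt31 with 1.54 and 1.60 and Krt33a with 1.36 and 0.814. The other type I and the type II hair keratins had 1.23 FPKM or less, and each of them stood on fewer than 10 estimated reads in JunB cKO. So few reads restrict the comparison of the genotypes for them, and no test was run. The row named Krt83, with 0.983 and 0.740 FPKM, lies at the position that the annotation GENCODE M21 gives to Krt87. The row at the annotated position of Krt83 had 1.03 and 0.773 FPKM.

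Tchh had 6.61 and 5.21 FPKM in unperturbed samples, Padi3 had 0.392 and 0.350, and Tchhl1 had 0.222 and 0.538. S100a3, a calcium-binding protein of the hair cuticle, had 7.63 and 10.98 FPKM (log2 ratio 0.47). In the other tables it is joined with S100a4 and a predicted gene in a single row and has no value of its own. Foxn1, with 8.71 and 7.41 FPKM, was the most abundant factor, Hoxc13 had 2.62 and 4.49, and Msx2 had 2.83 and 3.38. Msx1 was the only member past the limit, with 0.167 and 1.65 FPKM (log2 ratio 1.18), on about 5 and 14 reads. Crisp1 had 0.0487 and 0.825 FPKM (log2 ratio 0.80), on about 1 and 5 reads. The fibroblast markers summed to 13.0 and 11.8 FPKM and the sebocyte markers to 435 and 238 FPKM in this table. Of the 9 epidermis markers 7 were higher in JunB cKO by any amount and 2 lower. Past the 2-fold limit were Lor, with 47.0 and 213 FPKM, and Flg, with 11.3 and 46.1. The part of these lists in the hair gene values was not tested.

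Set side by side, 25 of 31 members (80.6%) were higher in JunB cKO after plucking and lower in wounds. Of 15088 genes that reached 1 FPKM in both tables, 25.2% had this pair of directions. The opposite pair was found for 2 members, Msx1 and Hoxc13, and both values were lower for Krt36 and Krt84. Both were higher for Krt82, and Krt40 was listed at 0 in both genotypes after plucking. The 25 members comprised all inner root sheath keratins, Krt75, most hair keratins, the trichohyalin group and Crisp1, but of the factors only Msx2 and Foxn1. The difference between the tables was not tested. The levels also differed between the tables, since the members summed to 132 FPKM in plucked and 10660 in wounded wild type skin, with the caveat of separate normalization.

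A list of 24 other genes that act in the hair follicle, among them signals, receptors and enzymes, served as comparison. After plucking 5 of the 23 genes found were higher in JunB cKO at the 2-fold limit and 2 were lower, with a median log2 ratio of 0.38. These are 21.7% and 8.7%, against 18.4% and 16% of the expressed loci, so the share of higher genes was near that of all expressed loci. Gprc5d, a receptor of shaft-forming cells, was listed at 0 in wild type and had 18.4 FPKM in JunB cKO, and Shh, the hedgehog signal of the matrix, was listed at 0 and had 2.67. Lef1, a Wnt effector in shaft precursors, had 1.46 and 6.94 FPKM. The lowest ratios were those of Foxq1, a factor of the hair medulla, with 3.37 and 0.167 FPKM, of the Wnt ligand Wnt10b, with 3.03 and 0.669, and of the BMP receptor gene Bmpr1a, with 102 and 71.6.

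In wounds 1 of these 23 genes was lower at the limit and none was higher, with a median log2 ratio of -0.13. The share of 4.35% was near the 5.19% of expressed loci that were lower. It was Tgm3, a transglutaminase that cross-links trichohyalin and other proteins, with 33.3 and 12.7 FPKM. Foxq1, with 11.9 and 5.61 FPKM, and Dsg4, a desmosomal cadherin of the shaft, with 63.5 and 32.3, followed. The highest ratios were those of Sostdc1, a BMP and Wnt antagonist, with 21.1 and 30.8 FPKM, of Hr, a corepressor needed for hair cycling, with 40.5 FPKM in wild type and 143% of that level in JunB cKO, and of the stem cell factor Lhx2, with 15.6 and 20.7. In unperturbed samples 2 of 24 were higher, or 8.33% against 15.4% of the expressed loci, with a median log2 ratio of -0.07 over the list. They were Shh, with 0.312 and 2.03 FPKM, and Dlx3, a factor of the hair matrix, with 6.12 and 13.7, and Sostdc1 came next with 43.6 and 71.6. The lowest ratios there were those of Prr9, a proline-rich protein, with 6.20 and 2.86 FPKM, of Cux1, with 41.8 and 28.3, and of Trps1, with 4.42 and 3.21.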

How the data were processed

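RNA-seq tables of 8 libraries were used, which the labels assign to 6 groups. According to the study's methods and the submitters' processing notes, the authors depleted rRNA, sequenced stranded single-end reads of 75 bases, filtered them with the FASTX-toolkit, aligned them to GRCm38 with TopHat 2.1.0 and HISAT2, and calculated the deposited FPKM values with Cufflinks 2.2.1 and Cuffdiff. The deposited tables also hold the authors' fold changes, p-values and q-values, which were not used. The columns of the wound table pool both libraries of a genotype. Genotypes were read from names inside the tables, whereas plucking and wounding were read from table names alone.

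FPKM values were compared as log2((cKO + 1)/(WT + 1)), with the locus of largest summed FPKM where a symbol had several. No test was run with 1 value per genotype, and the limma fit planned for wounds could not be made. The members and lists were chosen with earlier results of these data known, and TATAAA and its window after the data had been seen. All members were named, and of the other hair follicle genes the 3 highest and 3 lowest log2 ratios per table among those that reached 1 FPKM in a genotype. Genes of the marker lists were given with their values for some lists only, including lists that moved against the members. Among lists without gene values, 5 of 5 sebocyte markers were lower in JunB cKO after plucking, 1 of them at the 2-fold limit. In wounds 2 of 6 leukocyte markers were higher at the limit and 0 were lower. Median log2 ratios in unperturbed, plucked and wounded samples were 0.51, -0.84 and 0.46 for adipocyte markers, 0.81, -0.60 and 0.64 for leukocyte markers, and -0.88, -0.12 and 0.64 for sebocyte markers.

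Reads per gene were estimated from FPKM, the longest transcript in GENCODE M21 and the value of 1 read, obtained from single-exon loci of 880 to 2500 bp. They are approximate. Windows of 75 bases of each member's longest transcript were searched in the transcripts of all other genes, because the counting of reads that match several genes is not given in the sources used here. The tables list Tchh with its neighbours in a merged interval, although with its own value. Calculations were tested on simulated data and were done with pandas 2.3.3 and numpy 2.4.6 under Python 3.11.15; plots used matplotlib 3.10.9. One listed gene is not reported here.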

Additional observations from a re-analysis of the deposited data

Results flagged for a closer look

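Several members were past the 2-fold limit in opposite directions in different tables, and these differences between the tables were not tested, since each rests on 1 value per genotype. Krt26 had a log2 ratio of JunB cKO over wild type of 1.54 after hair plucking and -1.18 in wounds, Krt28 of 3.76 and -1.02, Krt32 of 1.04 and -1.06, and Tchh of 3.37 and -1.14. The median over all 31 members was 1.86 after plucking and -0.64 in wounds. Msx1 had a log2 ratio of 1.18 in unperturbed samples, on about 5 and 14 reads, and of -1.12 after plucking, on about 33 and 0 reads; summed over both loci of Msx1 in the plucked table the latter was -0.49, which is not past the limit.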

How the results depend on the processing

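Of 81 recalculated counts and medians over the members, 67 stayed within 1.5-fold, or within 0.1 on the log2 scale, and 14 did not. For unperturbed samples, 6 members in place of 1 were higher at the 2-fold limit with a pseudocount of 0.1 FPKM, and 11 with 0.01. After the median of sensory receptor genes had been subtracted 0 were higher. At a 1.5-fold limit 5 were higher, against 1, and 1 was lower, against 0. Shares of all loci were not calculated with the smaller pseudocounts, after the subtraction or at 1.5-fold in any table, so these counts have no comparison. Of 1488 sensory receptor genes in unperturbed samples, 1214 were listed at 0 in wild type alone. The median log2 ratio of the members there, 0.16, became 0.46 and 0.47 with the smaller pseudocounts and 0.32 after centring. It was -0.21 among members with an FPKM of at least 1 and -0.23 after the subtraction. After plucking the median of 1.86 became 2.94 and 2.99 with the smaller pseudocounts, and 1 member in place of 3 was lower among those above 0 in both genotypes, a restriction chosen after seeing the data. With loci summed per symbol 2 were lower there, without Msx1. In wounds 17 members in place of 6 were lower at 1.5-fold. Of 174 medians by role, 29 moved by more than that. Another setting kept only members with under 10% of 75-base windows in another gene. There the median of the type II hair keratins after plucking turned from 2.52 to -0.87, with Krt82 and Krt84 left. That of the type I hair keratins after plucking fell from 1.80 to 0.73. Centring subtracted the median log2 ratio of loci reaching 1 FPKM in each genotype. It shifted the log2 ratios by less than 0.1 after plucking and in wounds. In unperturbed samples that median was -0.15, so the log2 ratios rose. No paired analysis was possible because the wound table holds 1 value per genotype; the fits without 1 wound replicate and with a replicate block were therefore not run. Low hair keratins in unperturbed JunB cKO rest on few reads, which limits that comparison.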
